A study of Mus musculus with 12 samples.

Results

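The messages of 10 genes of 1 signalling pathway were followed through 4 treatments of a mouse osteoblastic cell line: the suppressor of cytokine signalling genes Socs1, Socs2, Socs3, Socs4, Socs5 and Socs6, and the signal transducer genes Stat3, Stat5a, Stat5b and Stat6. They were found by their symbols among the 25124 entries of the deposited table, and 10 of 10 had a mean log2 level of at least 4, the minimum for testing. The cells were MC3T3-E1, an established line of bone-forming precursors from mouse calvaria, with no engineered genotype given. Every group, untreated cells included, was first kept in 2.5% serum for 30 min. The 4 groups of 3 libraries were untreated cells, cells given TNFa at 10 ng/mL, cells given BMP4 at 10 ng/mL for 3 h, and cells given TNFa and 30 min later BMP4, at the same doses (TNFa+BMP4). The labels leave the length of the TNFa exposure unsettled: the protocol adds 3 h to the 30 min, whereas the characteristics state 3 h. The label p65 in the titles of the TNFa group has no explanation among the labels. Replicate 1 of each group belongs to the labels' batch 1, and replicates 2 and 3 to batch 2. Since no label states that replicates came from separate cultures, each p-value reflects the spread among these libraries, which may be technical.

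Cytokine receptors of this pathway carry Janus kinases, which phosphorylate STAT proteins so that these pair, enter the nucleus and bind DNA. SOCS proteins are the inhibitors of the pathway: many are induced by the STATs themselves, and they bind receptors or Janus kinases and bring them to a ubiquitin ligase through their SOCS box. In bone-forming cells the cytokines of the interleukin-6 family act largely through STAT3, growth hormone acts through STAT5 with SOCS2 as its inhibitor, and TNFa reaches the pathway mainly through NF-kB and the cytokines and receptors that NF-kB induces. BMP4 signals through Smad proteins. Messenger RNA was measured here, so nothing is known from these libraries of STAT phosphorylation or of protein levels.

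Tag totals were 13.7 to 15.5 M per library, with 20.6 M in TNFa+BMP4 replicate 2. Of 9 osteoblast markers, 6 had a mean log2 level of at least 4, among them Col1a1 at 17.26 and Runx2 at 10.31. The maturation markers Bglap, Alpl and Ibsp were near 0 or below (log2 -0.03, 0.35 and -1.23). Markers of leukocytes reached the minimum for 1 of 7 genes (Cd68, 4.49), with Adgre1 and Cd3e listed at 0, of endothelium for 1 of 4 (Pecam1, 4.95), and of adipocytes and muscle for 0 of 4 each. Cartilage markers were present for 2 of 3, Col2a1 at 14.95 and Sox9 at 12.09, with Acan listed at 0. Some markers moved with treatment by limma. With TNFa, Sox9 fell by 0.74 and Runx2 by 0.60. With BMP4, Sox9 (0.46), Col2a1 (0.65) and the osteoblast factor Sp7 (0.80) rose. With TNFa+BMP4, Sox9 fell by 0.41 and Runx2 by 0.39, while Col2a1 (0.56) and Pecam1 (0.39) rose. Their part in the results of the 10 genes was not tested.

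TNFa raised the messages of 3 of the 4 STAT genes and of 1 of the 6 SOCS genes. Socs1 changed most (log2 change 0.71 ± 0.08 SE), followed by Stat5a (0.53 ± 0.07), Stat3 (0.46 ± 0.09) and Stat6 (0.34 ± 0.05). These were 4 of 10 members called, 4 higher and 0 lower, whereas 15.5% of the 11765 tested genes were called, 9.16% higher and 6.32% lower. Stat5b, Socs2, Socs3, Socs4, Socs5 and Socs6 were not called, and at an unadjusted p under 0.05 limma passed 5 members. The share of all tested genes passing that unadjusted threshold was not counted, so this number has no background. The median log2 change was 0.12 over the members and -0.01 over all tested genes. A call is an adjusted p under 0.05 in limma's moderated test of the deposited log2 values, with group and batch in the model and Benjamini-Hochberg adjustment over all tested genes. Changes are on the deposited log2 scale, with n = 3 libraries per group. In bulk RNA, fewer cells of a type and less RNA per cell cannot be told apart.

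**Figure D1:**
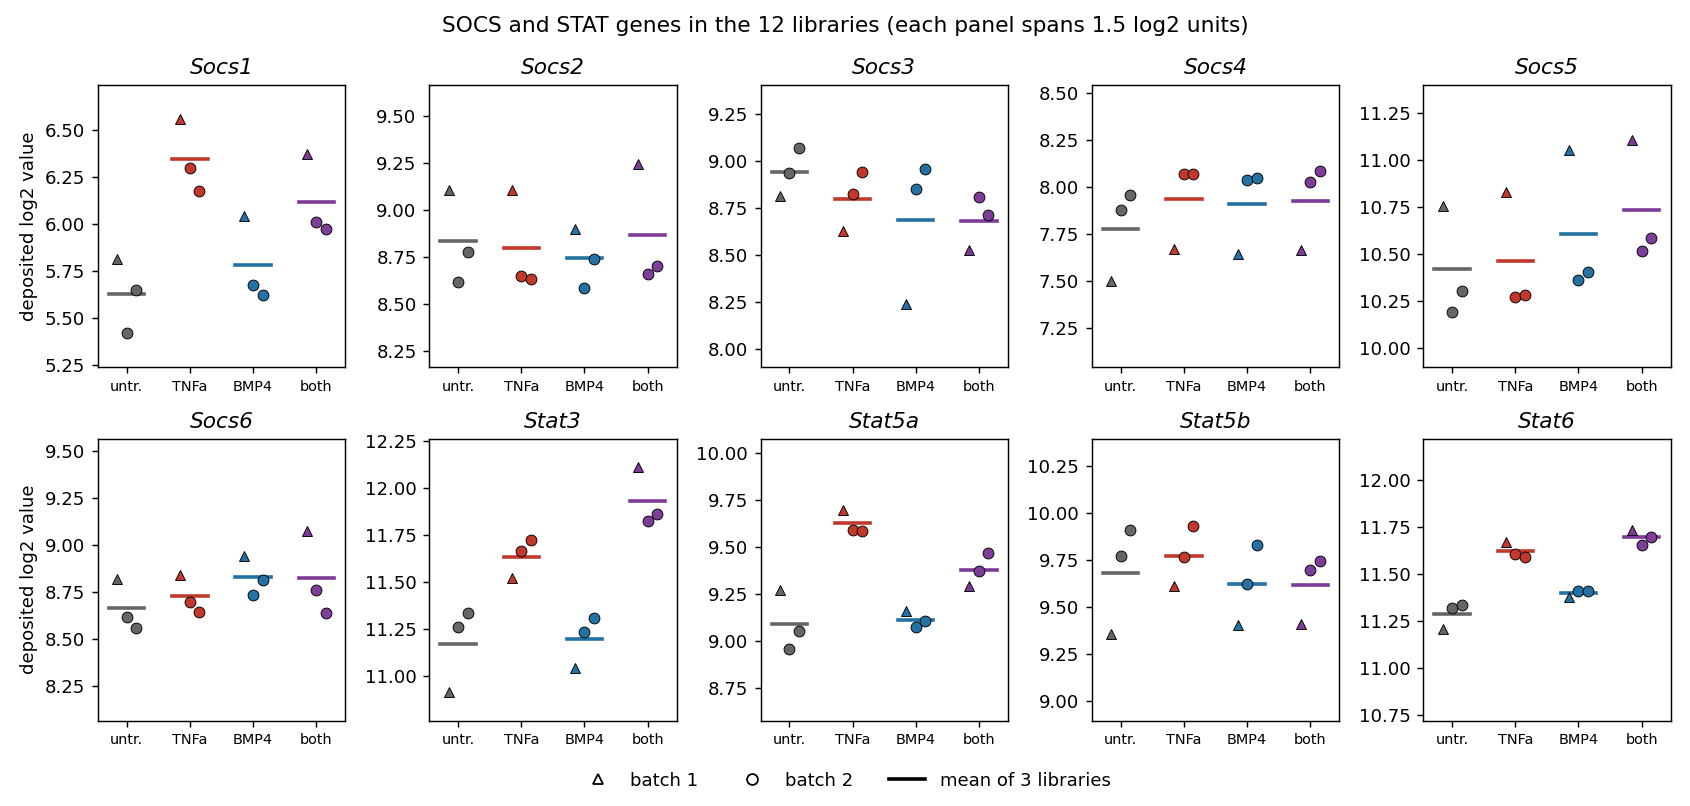
Deposited log2 level of each member (vertical axis) in the 4 groups, 1 point per library with the batches marked and bars for group means. The TNFa and TNFa+BMP4 libraries of Stat3, Stat6 and Stat5a lie above all untreated ones, as do those of Socs1, and in Socs2 the groups overlap.

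Stat3 encodes the STAT that carries interleukin-6 family signals. It lies on mm10 chromosome 11 (chr11:100886806-100939540, minus strand, NM_213659). Its log2 level was 10.91, 11.26 and 11.33 in untreated replicates 1, 2 and 3, 11.52, 11.66 and 11.72 with TNFa, 11.04, 11.23 and 11.31 with BMP4, and 12.11, 11.82 and 11.86 with TNFa+BMP4. All TNFa libraries were above all untreated ones, and all TNFa+BMP4 libraries were above all others, whereas the BMP4 libraries overlapped the untreated ones. By limma, Stat3 was higher with TNFa by 0.46 ± 0.09 (adjusted p = 0.000443, 95% interval 0.29 to 0.64). It was higher with TNFa+BMP4 than in untreated cells by 0.76 ± 0.09 (adjusted p = 6.15e-07). With BMP4 alone the difference from untreated cells was 0.03 ± 0.09 (adjusted p = 0.891). Adding BMP4 to TNFa gave a further 0.30 ± 0.09 (limma adjusted p = 0.0273), which rested largely on TNFa+BMP4 replicate 1, the highest Stat3 library: without it the difference was 0.12 (limma adjusted p = 0.281). That call was also lost without TNFa replicate 1, 2 or 3 (limma adjusted p = 0.103, 0.0881 and 0.0515), and the authors' deposited table gives 0.32 with an adjusted p of 0.126. Within batch 1 the TNFa+BMP4 difference from untreated cells was 1.20, and within batch 2 it was 0.54.

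Stat5a and Stat5b encode near-identical STATs that act below growth hormone, prolactin and several interleukins. Stat5a (chr11:100859351-100885169, plus strand, NM_011488) lies between Stat5b (chr11:100780731-100850581, minus strand, NM_001113563) and Stat3, with 8769 bases to Stat5b and 1636 to Stat3, so that 3 of the 4 STAT members sit within 158810 bases. Stat5a was at 9.27, 8.96 and 9.06 in untreated cells, 9.70, 9.59 and 9.59 with TNFa, 9.16, 9.08 and 9.11 with BMP4, and 9.29, 9.37 and 9.47 with TNFa+BMP4. The TNFa libraries were above all others, those with TNFa+BMP4 came next, just above the highest untreated library, and BMP4 overlapped untreated. Stat5b was at 9.36, 9.77 and 9.91 in untreated cells, 9.61, 9.77 and 9.93 with TNFa, 9.41, 9.62 and 9.83 with BMP4, and 9.41, 9.70 and 9.75 with TNFa+BMP4, and all 4 groups overlapped.

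Stat5a rose with TNFa by 0.53 ± 0.07 (limma adjusted p = 9.51e-06) and with TNFa+BMP4 by 0.28 ± 0.07 against untreated cells (adjusted p = 0.00401). Within batch 1 the latter difference was 0.02, and within batch 2 it was 0.42. Stat5b differed from untreated cells by 0.09 ± 0.07 with TNFa (limma adjusted p = 0.447, 95% interval -0.05 to 0.24). Its difference was -0.06 ± 0.07 with BMP4 (limma adjusted p = 0.659) and -0.06 ± 0.07 with TNFa+BMP4 (adjusted p = 0.534). With BMP4 on top of TNFa, Stat5a was lower than with TNFa alone by limma (-0.25 ± 0.07, adjusted p = 0.0257), the opposite direction to Stat3. That call did not hold without TNFa replicate 1, 2 or 3 (limma adjusted p = 0.103, 0.0734 and 0.066) or TNFa+BMP4 replicate 1 or 2 (-0.16 with adjusted p = 0.23, and adjusted p = 0.0566). The authors' deposited table gives -0.28 with an adjusted p of 0.0219.

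The within-library difference Stat5a minus Stat5b, in which library scaling drops out, was -0.09, -0.81 and -0.85 in untreated cells and 0.09, -0.17 and -0.35 with TNFa. It was -0.25, -0.55 and -0.73 with BMP4 and -0.12, -0.32 and -0.27 with TNFa+BMP4. In both batches it was higher with TNFa than in untreated cells, and replicate 1 stood above replicates 2 and 3 in every group. The difference between the responses of these genes was not tested. Reads can be shared between them: 836 of the 31-base stretches of their annotated transcripts were identical, 11.5% of those of Stat5a and 15.1% of those of Stat5b, and at the read length of 150 bases 2.21% and 3.16% were. The distance between Stat3 and Stat5a given above is that of the authors' transcripts. Over the GENCODE transcripts, exons of Stat3 and Stat5a share 72 bases on opposite strands. That is 0.756% of the exon bases of Stat3 and 1.01% of those of Stat5a. Whether the authors counted by strand is not given in the sources used here.

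Stat6 encodes the STAT of interleukin-4 and interleukin-13 signals (chr10:127642986-127660987, plus strand, NM_009284). It was at 11.21, 11.32 and 11.33 in untreated cells, 11.67, 11.61 and 11.59 with TNFa, 11.38, 11.41 and 11.41 with BMP4, and 11.73, 11.65 and 11.70 with TNFa+BMP4. The groups formed 2 levels: every library that received TNFa was at 11.59 or above, and every library without it was at 11.41 or below. By limma it rose by 0.34 ± 0.05 with TNFa (adjusted p = 2.97e-05) and by 0.41 ± 0.05 with TNFa+BMP4 (adjusted p = 1.5e-06). The BMP4 libraries were all above the untreated ones, but the difference of 0.11 ± 0.05 did not pass (limma adjusted p = 0.145). Stat6 shares 40 exon bases, 0.909% of its own, with Nab2 on the opposite strand.

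Socs1 encodes the inhibitor that binds Janus kinases directly and limits interferon signalling (chr16:10783809-10785536, minus strand, NM_001271603). It was at 5.82, 5.42 and 5.65 in untreated cells, 6.56, 6.30 and 6.18 with TNFa, 6.04, 5.68 and 5.63 with BMP4, and 6.38, 6.01 and 5.97 with TNFa+BMP4. All libraries that received TNFa were above all untreated libraries, and the TNFa+BMP4 libraries overlapped both the TNFa and the BMP4 libraries. Within each batch, where 1 library per group was available in batch 1 and 2 in batch 2, the order was TNFa, then TNFa+BMP4, then BMP4 and untreated. By limma Socs1 rose by 0.71 ± 0.08 with TNFa (adjusted p = 8.01e-07, 95% interval 0.55 to 0.88) and by 0.49 ± 0.08 with TNFa+BMP4 (adjusted p = 6.9e-05). The difference between TNFa+BMP4 and TNFa was -0.22 ± 0.08 (limma adjusted p = 0.0713). Socs1 is the weakest of the 10 members, and the authors' deposited table gives larger changes, 1.60 for TNFa and 1.17 for TNFa+BMP4. The deposited log2 scale may compress changes at low levels, which was not tested.

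The bases before the start of Socs1 are printed because it had the largest change with TNFa. The 250 bases before its RefSeq start (GRCm38.p6, chr16:10785537-10785786, minus strand, 61.2% G or C) read 5′ to 3′, with capitals for matches to an interferon regulatory factor element:
Socs1 promoter: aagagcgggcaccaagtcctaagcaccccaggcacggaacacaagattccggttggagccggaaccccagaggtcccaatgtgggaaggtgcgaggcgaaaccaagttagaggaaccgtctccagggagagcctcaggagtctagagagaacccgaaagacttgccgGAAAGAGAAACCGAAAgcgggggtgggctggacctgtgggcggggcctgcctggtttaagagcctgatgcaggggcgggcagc
The element searched, on both strands, was GAAA followed after any 2 bases by GAAA, and the capitals hold 2 overlapping matches, at -83 to -74 and -77 to -68 from the start. Such a match was present in 2.98% of 32841 RefSeq promoters of the same length. The NF-kB consensus was also searched and had no match in this window. A match describes letters and not a bound site. RefSeq promoters are given for 7 of the 10 members, 5 of them at the start used by the authors. That of Socs6 is not reported here, and none was matched for Socs2 and Socs5.

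Socs3 encodes the inhibitor that binds the shared interleukin-6 family receptor gp130 (chr11:117966087-117969366, minus strand, NM_007707). Its levels were 8.81, 8.93 and 9.07 in untreated cells, 8.62, 8.82 and 8.94 with TNFa, 8.24, 8.85 and 8.96 with BMP4, and 8.53, 8.81 and 8.71 with TNFa+BMP4. TNFa+BMP4 libraries reached at most the lowest untreated library, and BMP4 replicate 1 was the lowest of all 12. Socs3, itself a known STAT3 target, was called higher in no contrast. With TNFa its difference was -0.14 ± 0.09 (limma adjusted p = 0.324, 95% interval -0.33 to 0.04), and with TNFa+BMP4 it fell by 0.26 ± 0.09 (limma adjusted p = 0.0293). With BMP4 the difference was -0.26 ± 0.09 (limma adjusted p = 0.0607), from -0.58 in batch 1 and -0.10 in batch 2. The TNFa+BMP4 call was lost without untreated replicate 1 or 3 (limma adjusted p = 0.174 and 0.0728), without TNFa+BMP4 replicate 2 or 3 (0.0607 and 0.124), and when all genes not at 0 throughout were tested (0.0713). The BMP4 difference passed without untreated replicate 2, BMP4 replicate 3 or TNFa+BMP4 replicate 1 (limma adjusted p = 0.0401, 0.0226 and 0.0467).

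The promoter of Socs3 is shown for comparison with that of Socs1. Its 250 bases (GRCm38.p6, chr11:117969367-117969616, minus strand, 71.6% G or C) carry capitals for a STAT dimer element, TTCNNNGAA, and for a GC-rich Smad element, GGCGCC:
Socs3 promoter: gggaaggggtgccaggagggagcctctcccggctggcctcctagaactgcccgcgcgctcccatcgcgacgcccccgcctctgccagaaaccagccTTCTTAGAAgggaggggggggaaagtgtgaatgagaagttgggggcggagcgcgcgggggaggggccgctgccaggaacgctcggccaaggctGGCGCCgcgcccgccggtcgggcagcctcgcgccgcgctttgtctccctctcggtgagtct
The STAT dimer match lay at -154 to -146 and occurred in 7.02% of promoters, and the Smad element lay at -61 to -56 and occurred in 9.59%. No match to the interferon regulatory factor element or to the NF-kB consensus was in this window. The window of Socs1 held no match to the STAT dimer element. The promoters of Stat3, Stat5b, Stat6 and Socs4 held no match to any of the 5 elements searched, which were those above, TTC followed after any 4 bases by GAA (5.85% of promoters), and the NF-kB consensus (7.25%). All were searched on both strands. Stat5a had 2 RefSeq promoters, both at other starts than the authors' transcript: 1 held no match, and the other held the NF-kB consensus at -234 to -225 and GGCGCC at -165 to -160 and -143 to -138.

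Socs5, whose product limits epidermal growth factor and interleukin-4 receptor signalling, was the only member called with BMP4 alone (chr17:87107679-87137588, plus strand, NM_019654). It was at 10.76, 10.20 and 10.31 in untreated cells, 10.83, 10.27 and 10.29 with TNFa, 11.06, 10.36 and 10.41 with BMP4, and 11.11, 10.52 and 10.59 with TNFa+BMP4. Replicate 1 was above replicates 2 and 3 in every group, so that the groups overlapped. Within each batch every library with BMP4 was above every library without it. By limma, Socs5 was higher with BMP4 by 0.19 ± 0.05 (adjusted p = 0.0207), with TNFa+BMP4 than in untreated cells by 0.32 ± 0.05 (adjusted p = 7.8e-05) and with TNFa+BMP4 than with TNFa by 0.27 ± 0.05 (adjusted p = 0.0012). The TNFa difference was 0.04 ± 0.05 (limma adjusted p = 0.658). The call for BMP4 alone was lost without untreated replicate 1 or 2 (limma adjusted p = 0.118 and 0.0674) or BMP4 replicate 1 or 3 (0.114 and 0.052), and the authors' deposited table gives 0.21 with an adjusted p of 0.0959. The summed level of the 3 cartilage markers (linear scale), most of it Col2a1, was 27911 to 33866 in untreated libraries, 22211 to 31535 with TNFa, 41565 to 60668 with BMP4 and 39835 to 46534 with TNFa+BMP4. Its part in the Socs5 result was not tested.

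Socs2, Socs4 and Socs6, like Stat5b, were called in no contrast. Socs2 limits growth hormone signalling (chr10:95411490-95416857, minus strand, NM_007706), and its group means ran from 8.74 ± 0.16 (SD) with BMP4 to 8.87 ± 0.32 with TNFa+BMP4. Socs4, a relative of Socs5 (chr14:47277143-47291591, plus strand, NM_080843), had means from 7.78 ± 0.24 in untreated cells to 7.94 ± 0.23 with TNFa. Socs6, on chromosome 18 (NM_018821), had means from 8.66 ± 0.14 in untreated cells to 8.83 ± 0.10 with BMP4. For each of them, the untreated libraries overlapped those of every treatment across batches. Within each batch, all treated Socs4 libraries were above the untreated ones, as were the BMP4 and TNFa+BMP4 libraries of Socs6. Socs4 differed from untreated cells by 0.16 ± 0.07 with TNFa (limma adjusted p = 0.141). For Socs6 the difference was 0.16 ± 0.07 with BMP4 (limma adjusted p = 0.126) and 0.16 ± 0.07 with TNFa+BMP4 (adjusted p = 0.0794), and the latter passed without TNFa+BMP4 replicate 3 (adjusted p = 0.0331).

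**Figure D2:**
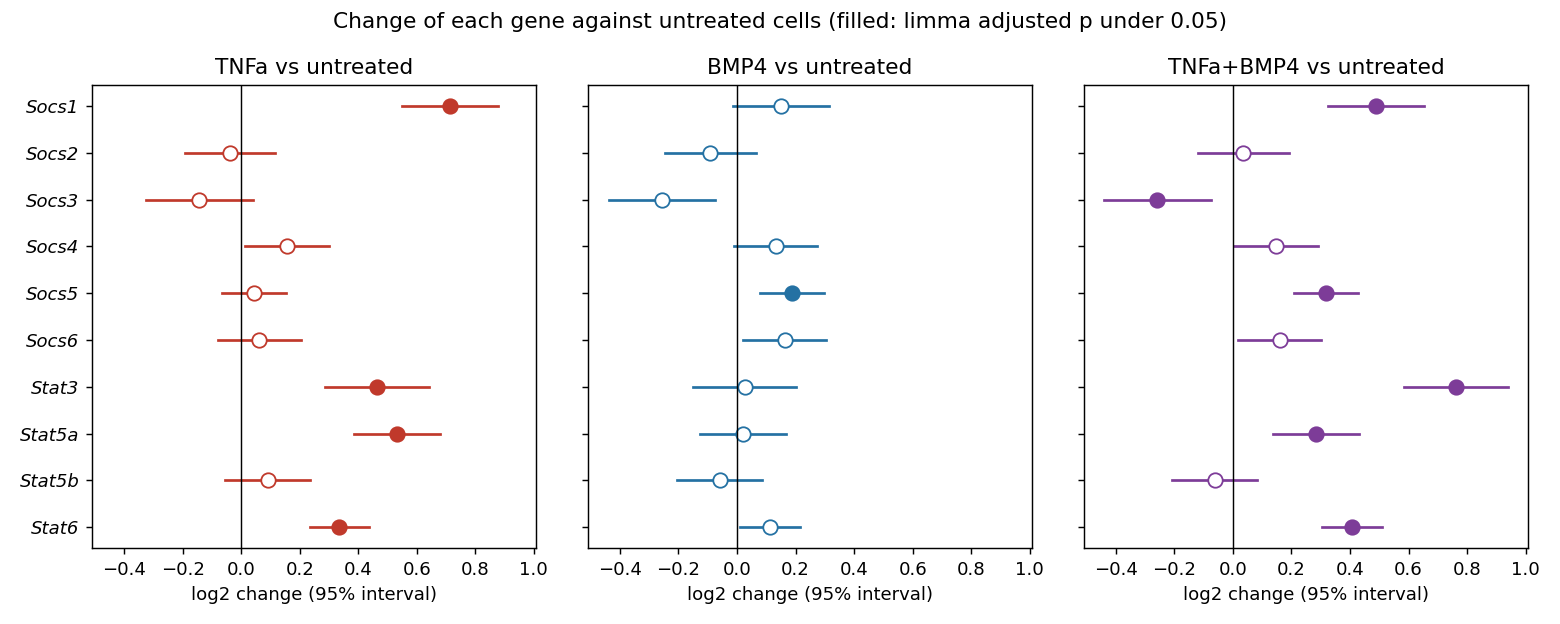
The limma log2 change of each member against untreated cells with its 95% interval (horizontal axis), for TNFa, BMP4 and TNFa+BMP4, with filled points for called members. Socs1, Stat3, Stat5a and Stat6 are filled and to the right of 0 in both panels with TNFa, Socs5 in both panels with BMP4, and Socs3 is filled to the left of 0 with TNFa+BMP4.

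BMP4 alone called 1 of 10 members (Socs5, higher) and 0 lower, against 12.2% of all tested genes, 6.75% higher and 5.47% lower, and TNFa+BMP4 called 6 of 10, 5 higher and 1 lower, against 31.2%, 16.8% higher and 14.4% lower. At an unadjusted p under 0.05, 4 and 8 members passed in these contrasts, and the share of all tested genes doing so was not counted. The median log2 changes of the members were 0.07 and 0.22, and those of all tested genes were 0.00. The authors' deposited table calls 0 members with BMP4, and 7.3% of the same tested genes, and 5 higher and 1 lower with TNFa+BMP4, and 21.2% of those genes. These contrasts and that of TNFa share the untreated libraries.

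TNFa given before BMP4, against BMP4 alone, called 4 of 10 members, all higher, where 16.2% of tested genes were called, 8.78% higher and 7.41% lower. They were Stat3 (0.74 ± 0.09, limma adjusted p = 1.64e-06), Socs1 (0.34 ± 0.08, adjusted p = 0.00432), Stat6 (0.30 ± 0.05, adjusted p = 0.000145) and Stat5a (0.26 ± 0.07, adjusted p = 0.0119). The Stat5a call was lost without TNFa+BMP4 replicate 3 (limma adjusted p = 0.0892). Socs5 was not called here, but passed without BMP4 replicate 1 (limma adjusted p = 0.0385) and in batch 2 alone (0.0346). BMP4 after TNFa, against TNFa alone, called 3 of 10 members, where 11.7% of tested genes were called, 5.47% higher and 6.2% lower. Stat3 and Socs5 were the 2 higher ones and Stat5a the 1 lower. Of the 6 fits that left out a library of these groups, Socs5 held in 6, Stat3 in 2 and Stat5a in 1.

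BMP4 and TNFa are compared directly in the authors' deposited table, a contrast not fitted here. In it 4 of the 10 members were lower with BMP4 than with TNFa, where 9.14% of the tested genes were lower and 16.6% called either way. They were Socs1 (log2 -1.21, adjusted p = 6.36e-05), Stat5a (-0.60, adjusted p = 6.03e-09), Stat3 (-0.47, adjusted p = 5.79e-12) and Stat6 (-0.24, adjusted p = 0.00136) in the authors' deposited table. Socs5 was at 0.16 (adjusted p = 0.149) in the same deposited table.

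Whether TNFa changed a member by another amount when BMP4 followed was tested as an interaction, the TNFa effect with BMP4 minus that without it. By limma it called 0 of 10 members, and 0.017% of tested genes (2 genes, 0.0085% higher and 0.0085% lower). At an unadjusted p under 0.05 it passed for 3 members, and the share of all tested genes doing so was not counted. The 3 were Socs1 (-0.37 ± 0.11, limma adjusted p = 0.708), Stat5a (-0.27 ± 0.10, adjusted p = 0.928) and Stat3 (0.27 ± 0.12, adjusted p = 0.993). No difference between the TNFa responses with and without BMP4 was therefore called for any member, and none is shown to be absent.

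**Figure D3:**
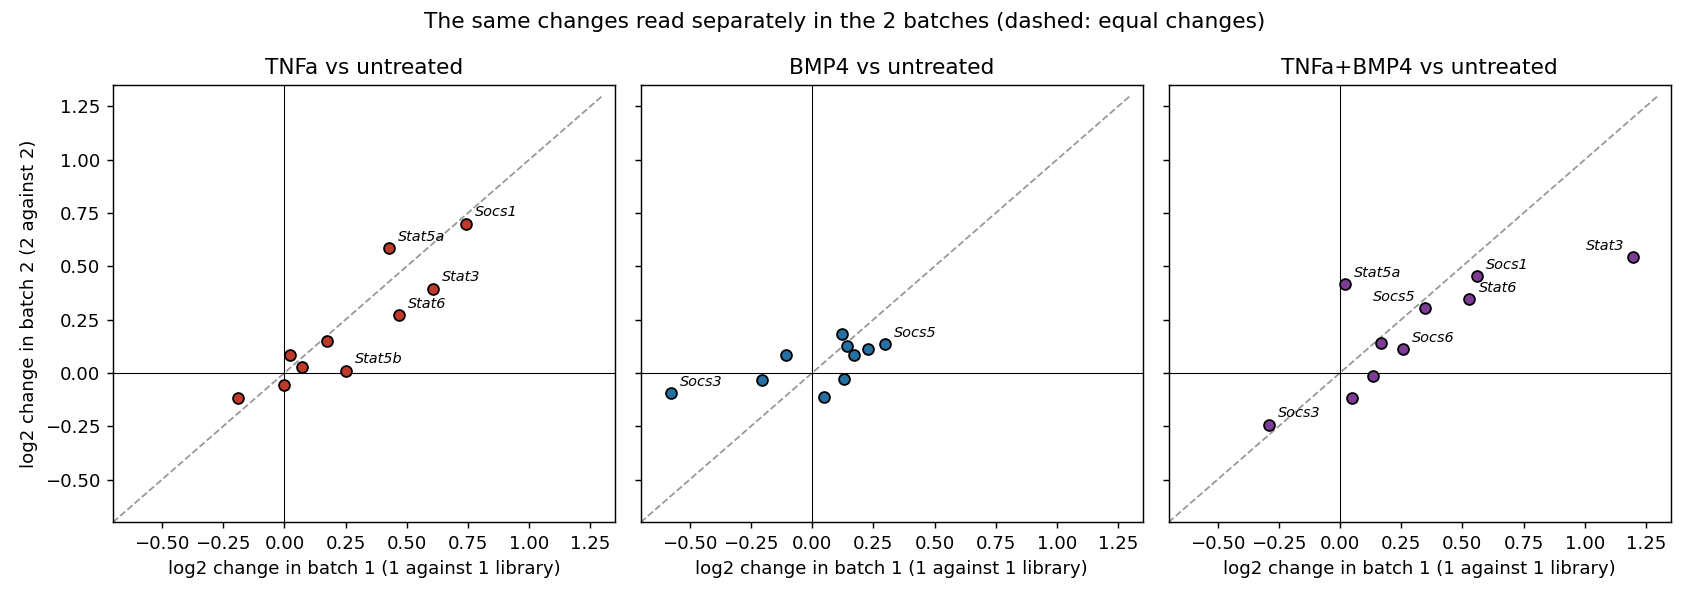
Log2 change of each member in batch 1 (horizontal axis, 1 library against 1) and in batch 2 (vertical axis, 2 against 2) for 3 contrasts with untreated cells, the dashed line marking equal changes. The called members lie on the same side of 0 in both batches, with Stat3 far to the right of the line under TNFa+BMP4.

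Between batch 2 and batch 1, limma called 7 of the 10 members, where 64.1% of tested genes were called: Socs5 (-0.57), Socs2 (-0.42), Socs1 (-0.35), Socs6 (-0.24), Socs4 (0.40), Socs3 (0.34) and Stat5b (0.34). It was not called for Stat3 (0.13), Stat5a (-0.08) and Stat6 (0.00). Each batch holds all 4 groups, and every called member had the same direction in both batches in each contrast. The calls come from these same libraries, so this agreement is no separate support. Of all 10 members, called or not, 10 shared a direction with TNFa, 7 with BMP4 and 8 with TNFa+BMP4, each against untreated cells. The share of all tested genes doing so was not counted, so these numbers have no background. Within batch 1 and batch 2 the TNFa differences were 0.74 and 0.70 for Socs1, 0.61 and 0.39 for Stat3, 0.43 and 0.58 for Stat5a, and 0.47 and 0.27 for Stat6. A model without the batch term kept 7 of the 18 member calls and lost 11, among them Stat3 with TNFa (limma adjusted p = 0.0784). The TNFa calls of Socs1, Stat3, Stat5a and Stat6 held in each of the 12 fits that left out 1 library. Of those fits, 6 left out an untreated or TNFa library, and the others removed libraries outside this contrast.

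Per kilobase of transcript, the untreated log2 level was highest for Stat6 (9.37 ± 0.07, SD, n = 3) and Stat3 (9.00 ± 0.22), then Socs5 (8.29 ± 0.30), Socs2 (7.68 ± 0.25), Socs3 (7.50 ± 0.13), Stat5b (7.39 ± 0.29), Stat5a (7.14 ± 0.16), Socs4 (6.67 ± 0.24), Socs6 (6.10 ± 0.14) and Socs1 (5.22 ± 0.20). The neighbours Socs2 and Socs3, Socs3 and Stat5b, and Stat5b and Stat5a overlapped between libraries, and the other neighbours did not. The inhibitor that moved most with TNFa was thus the lowest of all members by this measure. The measure is the deposited log2 value less the log2 of transcript length, and the transformation of the deposited values is not named.

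The rest of the pathway was read from lists chosen with earlier results of these data known. Of all tested genes, 9.16% were called higher and 6.32% lower with TNFa, and 16.8% and 14.4% with TNFa+BMP4. Of the receptor list, 15 of 23 genes were tested, and with TNFa 12 were higher and 1 lower, at a median log2 change of 0.56 beside -0.01 over all tested genes. By limma the largest were Ifngr2, an interferon gamma receptor chain (1.24 ± 0.06), Il13ra1, a receptor chain that signals to STAT6 (1.04 ± 0.09), and Il15ra, the interleukin-15 receptor chain (1.04 ± 0.09). Chosen after their values were seen, Il6st, which encodes gp130, rose by 1.01 ± 0.05 and Osmr, the oncostatin M receptor, by 0.90 ± 0.10, whereas Lifr, the receptor of leukaemia inhibitory factor, fell by 0.21 ± 0.07. With BMP4 1 was higher and 2 lower, beside 6.75% and 5.47% of all tested genes. Ifngr1 was higher (0.16, limma adjusted p = 0.0491). Il15ra and Il10rb were lower (-0.29 and -0.33, limma adjusted p = 0.0441 and 0.0315). With TNFa+BMP4 11 were higher and 2 lower, Lifr by -0.51 and the growth hormone receptor Ghr by -0.30. Ifngr1, Il10rb and Ghr were likewise chosen after their values were seen.

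Cytokine ligands were mostly below the minimum: 7 of 15 were tested, with 2 higher and 1 lower under TNFa. The shares over all tested genes were 9.16% higher and 6.32% lower. Lif, the interleukin-6 family ligand of Lifr, rose by 1.04 ± 0.10 with TNFa and Tslp, which signals to STAT5, by 0.28 ± 0.08, while Clcf1, another interleukin-6 family ligand, fell by 0.31 ± 0.10. All 4 Janus kinases were tested. Tyk2 (0.69 ± 0.06), Jak2 (0.50 ± 0.05) and Jak1 (0.21 ± 0.05) rose with TNFa, and Jak3 was not called (0.04 ± 0.08). With BMP4 the differences of Jak1 (0.09), Jak2 (0.16), Jak3 (-0.12) and Tyk2 (-0.03) were not called by limma, and with TNFa+BMP4 Jak1, Jak2 and Tyk2 were higher (0.20, 0.49 and 0.49).

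Stat2 and Irf9 encode transcription factors of the interferon response. By limma Stat2 (0.53 ± 0.07) and Irf9 (0.37 ± 0.10) rose with TNFa. Both were lower with TNFa+BMP4 than with TNFa, by -0.34 and -0.37, in the direction of Stat5a and opposite to Stat3. The calls of Stat5a and Stat3 in this contrast depended on single libraries, as given above. Stat4 was below the minimum for testing. Cish, the STAT5-induced member of the SOCS family, rose by 0.30 ± 0.07 with TNFa, and Socs7 was not called (0.02 ± 0.07).

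Of 10 phosphatase, PIAS and other brake genes, 8 were tested. With TNFa 1 was higher and 0 lower, beside 9.16% and 6.32% of all tested genes. The 1 was Ptpn2, a phosphatase of Janus kinases and STATs (0.47 ± 0.07). With BMP4 2 were higher, beside 6.75% of all tested genes. They were Pias2 (0.26 ± 0.07) and, chosen after its value was seen, the phosphatase Ptpn11 (0.16 ± 0.05). Pias3, whose product inhibits STAT3, fell by 0.27 ± 0.07 with TNFa+BMP4. All 4 genes of the SOCS-box ligase were tested: with TNFa the differences of Elob (0.03), Eloc (0.13), Cul5 (0.11) and Rnf7 (-0.09) were not called. Cul5, the scaffold, was higher with BMP4 (0.20) and with TNFa+BMP4 (0.18), and Eloc, an adaptor, with TNFa+BMP4 (0.22).

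Of 18 known STAT target genes, many of which NF-kB also induces, 16 were tested. With TNFa 8 were higher and 2 lower, beside 9.16% and 6.32% of all tested genes. With BMP4 3 were higher and 1 lower, beside 6.75% and 5.47%. With TNFa+BMP4 11 were higher and 1 lower, beside 16.8% and 14.4%. Bcl3, a nuclear partner of NF-kB, rose by 2.07 with TNFa, Junb, an AP-1 subunit, by 2.02, and Icam1, an adhesion molecule, by 1.92. Junb also rose with BMP4, by 1.64, and with TNFa+BMP4 by 3.22, where Bcl3 rose by 2.17 and Icam1 by 1.78. Named after their values were seen, the genes called lower with TNFa were Bcl6 (-0.27) and Bcl2l1 (-0.22), and with TNFa+BMP4 Bcl6 (-0.53). With BMP4, Fos (0.75) and Timp1 (0.39) were the other higher ones, and Ccnd1 was lower (-0.21), whereas with TNFa it was higher (0.76).

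**Figure D4:**
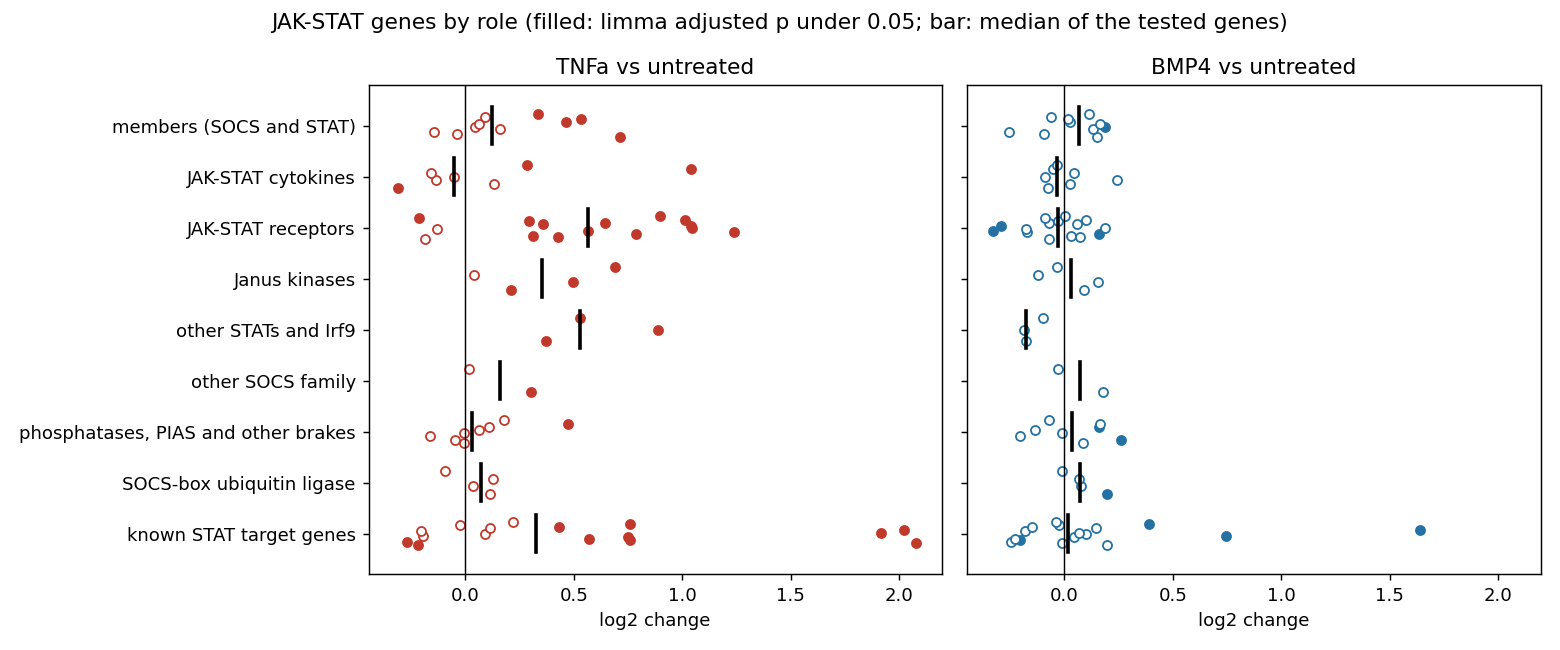
Limma log2 change of the tested genes of each pathway list (horizontal axis, 1 point per gene) for TNFa and for BMP4 against untreated cells, beside the 10 members, with filled points for called genes and bars for medians. Receptor and Janus kinase genes lie mostly to the right of 0 with TNFa, with receptor medians of 0.56 for TNFa and -0.03 for BMP4.

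The genes most like the 4 members with the widest range of group means were found by Pearson's r over the 12 libraries after centring each batch. These points share libraries and treatments, and the values are descriptions. Stat3 was matched most closely by Smurf1 (r = 0.984), P4ha2 (0.976) and Map2k3 (0.974), and Stat5a by Ankrd33b (0.969), Amotl1 (0.969) and Usf1 (0.968). For Stat6 they were St3gal1 (0.991), Gng12 (0.987) and Fosl1 (0.984), and for Socs1 they were Dlgap4 (0.967), Slc11a2 (0.963) and Zzz3 (0.961). Smurf1, whose product is a ubiquitin ligase of the BMP Smads, changed by 0.42 with TNFa, 0.08 with BMP4 and 0.56 with TNFa+BMP4.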

How the data were processed

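Polyadenylated RNA of 12 libraries was sequenced as 150 bp paired-end reads. Trim Galore, HISAT2, HOMER and the mm10 build are named, without versions, by the submitters' processing notes. Per the file headers, the authors deposited log2 values per library and, for each pair of groups, log2 fold changes with a p-value and an adjusted p-value. The transformation is not named, and the log2 values deposited by the authors may compress differences at low levels, which was not tested. The number of reads behind a gene is therefore unknown, and tag totals are those of the labels. Batch numbers are those of the labels, and the header has them reversed.

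With limma 3.58.1 (R 4.3.3), a model of the 4 groups plus batch was fitted to these log2 values with trended variances, leaving 7 degrees of freedom. It covered 11765 of 17701 genes with any signal, those whose mean log2 reached 4, and calls were two-sided at 0.05 after Benjamini-Hochberg adjustment in each contrast. The procedure was tested on simulated data. Members, pathway lists and tests were chosen with earlier results of these data known. All members are named; from lists of up to 4 genes all tested genes are named, except 1 that is not reported here, and from longer lists the 3 with the largest change among those called against untreated cells. A count model was planned for the case that the file held counts, which it did not. Promoters are from RefSeq (GRCm38.p6), and shared exons and transcript stretches from GENCODE. Alternatives were other minimum levels, an added constant of 16, quantile and median scaling, no batch term, a replicate block, batch 2 alone, no trend, the authors' test, and leaving out each library.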

Additional observations from a re-analysis of the deposited data

How the results depend on the processing

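No member that was called changed direction under any alternative. Of the 18 member calls, 18 held with median scaling, with an added constant of 16 and with the replicate block in place of batch, 16 with quantile scaling, without the variance trend, in batch 2 alone and in the authors' deposited test, 15 when all genes not at 0 throughout were tested, and 7 without the batch term. With a minimum of 6, Socs1 was not tested and the other 15 calls held.

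For BMP4 against untreated cells the member count was 0 with quantile scaling, without batch, in batch 2 alone, without the trend and in the authors' table, where limma called 1, with 4 at an unadjusted p under 0.05. Without batch it was 2 for TNFa+BMP4 against untreated cells, 2 against BMP4 and 0 against TNFa, and with no minimum level it was 1 against TNFa. Over all genes the main fit called 3673, 1905 and 1373 in these contrasts, and the fit without batch 869, 345 and 105. No minimum level left 906 against TNFa. Leaving out 1 library gave 0 to 2 members for BMP4, 5 to 6 for TNFa+BMP4, 3 to 5 for TNFa+BMP4 against BMP4 and 1 to 3 against TNFa. Among further losses, no minimum level ended the calls of Stat3 and Stat5a for TNFa+BMP4 against TNFa (limma adjusted p = 0.111 and 0.0642), and quantile scaling those of Socs5 with BMP4 and of Stat3 in that contrast (0.0841 and 0.0668). In that contrast Stat3 was also lost without the trend (0.0764) and Stat5a in batch 2 alone (0.115). Socs1 in that contrast passed without the trend (0.0431) and with the added constant (0.0499), and Socs4 with TNFa+BMP4 without the trend (0.0439).

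Over all genes, dropping the batch term left 383 calls for TNFa, 114 for BMP4, 869 for TNFa+BMP4, 345 for TNFa+BMP4 against BMP4, 105 against TNFa and 0 for the interaction. No minimum level left 906 for TNFa+BMP4 against TNFa and 0 for the interaction, which had 1 with quantile scaling, 1 with the replicate block and 15 in batch 2 alone. The authors' table has 864 for BMP4. Leaving out 1 library gave 1297 to 2084 for TNFa, 756 to 1642 for BMP4, 2560 to 4014 for TNFa+BMP4, 1320 to 2094 and 752 to 1726 for TNFa+BMP4 against BMP4 and TNFa, and 0 to 7 for the interaction. Replicate numbers were not shown to pair samples within batch 2 (correlations of replicate differences 0.0199 to 0.164), and the block gave 1738 calls for TNFa. Where no cause is plain from how an alternative is built, the cause was not tested. The depth per gene is unknown.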
